A study of Homo sapiens with 4 samples.

Results

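The comparison described here sets 1 HEK-293 library from cells given a small interfering RNA (siRNA) against ZSCAN5B, called si1, beside 1 library from cells given a scrambled control siRNA. Its members are the 12921 of 24934 gene rows with an FPKM of at least 1 in at least 1 of these libraries and an FPKM above 0 in both, FPKM being the fragments of a gene scaled by its transcript length and the size of the library. At the edge of the expression limit, ADPRHL1 entered with 0.766 FPKM with si1 and 1.00 in the control, and ZNF385C stayed out with 0.999 and 0.979. HEK-293 is an established line of human embryonic kidney origin. The cells of each library received 10 nM of siRNA by lipid transfection with Lipofectamine RNAiMAX, and RNA was taken after 48 h. A pair of further libraries came from cells given si4 or si5, both against the paralog ZSCAN5A, and all 4 treatments therefore shared the line, the dose, the time and the transfection. Each treatment had 1 library. ZSCAN5B was targeted with a single siRNA design, and the control was a Silencer negative control. The differences below are thus between single libraries, and no p-value is given.

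ZSCAN5B belongs to a small primate-expanded family of proteins that carry a SCAN domain, which pairs such proteins with each other, and zinc fingers, which bind DNA. The study placed these proteins at tRNA genes and other sites used by RNA polymerase III, and asked which transcripts change when each gene is silenced. An siRNA works through its guide strand, which Argonaute proteins carry to transcripts that pair with it along its whole length. The same strand can also lower transcripts whose 3′ untranslated region (3′ UTR) pairs only with the seed, guide bases 2 to 8, in the way a microRNA does.

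The si1 target and guide are shown because the results by seed match turn on them. The capitals mark the seed in the guide and the 7 bases of the target that pair with it.
si1 target: acgtgtgcaataaATCATTTa
si1 guide: tAAATGATttattgcacacgt
The target lay in the genome build hg19 (GRCh37) at chr19:56701591-56701611 on the minus strand, within exon 5, the last of 5 in ZSCAN5B, and inside its coding sequence. It matched 1 gene exactly, and its closest paralogous place, in the locus annotated as ZSCAN5DP, had 5 mismatches. The 8 sites that follow lie in the 3′ UTRs of 5 genes that stood below all other libraries, written as in the transcript, with the seed match in capitals.
TFDP1 site at chr13:114295391-114295411, plus strand: tacttataagtctATCATTTa
TFDP1 site at chr13:114295514-114295534, plus strand: tcaaaatttgtcaATCATTTt
CD164 site at chr6:109688995-109689015, minus strand: acattattttagaATCATTTa
CD164 site at chr6:109688955-109688975, minus strand: atattattttagaATCATTTa
CD164 site at chr6:109688933-109688953, minus strand: tttaaatgagacaATCATTTt
CBFB site at chr16:67133043-67133063, plus strand: agggttttctctaATCATTTt
DUS1L site at chr17:80015763-80015783, minus strand: aagtgaacaataaATCATTTc
SH3BP5 site at chr3:15297516-15297536, minus strand: cattgtgccaataATCATTTa
The DUS1L site shared 17 of its 21 bases with the si1 target, the SH3BP5 site 15, and the remaining 6 sites between 9 and 12. A match followed by A, as in the first TFDP1 site, makes the 8-base run ATCATTTA.

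ZSCAN5B itself was not lower in the library that targeted it. In FPKM it stood at 0.0331 in the si4 library, 0.0663 in si5, 0.0948 in si1 and 0.0903 in the control. The si1 library was the highest of the 4, and all 4 were far under the expression limit, so that ZSCAN5B was not a member of its own comparison. The steps between low FPKM values put 16 fragments behind the si1 value and 15 behind the control value, which makes si1 105% of the control with an exact 95% interval of 48.6% to 228% that covers counting error only. A decrease to 48.6% of the control or less was outside that interval, and smaller decreases were not detectable at this depth. At this depth the ZSCAN5B values alone could not check the label. The sample is therefore called the library labelled ZSCAN5B knockdown, or the si1 library. ZSCAN5A had an FPKM of 2.53 with si1 and 2.42 in the control, against 0.730 with si4 and 0.713 with si5. The si1 and control values lay together, well above both ZSCAN5A siRNAs. Of the nearest genes of other names, GALP had an FPKM of 0.0247 with si1 and was listed at 0 in the other 3 libraries, and ZNF542 had 9.75 with si1 and 9.03 in the control. The ZNF542 values of si4 and si5, 8.84 and 9.90, spanned nearly the same range.

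Estimated from the same steps, the si4 library held approximately 59700000 fragments, si5 84400000, si1 55500000 and the control 54600000. A gene at 1 FPKM with 1 kb of transcript thus rested on about 55 fragments, for which equal levels allow a ratio of 0.675 to 1.48, and at 5 FPKM the limits were 0.843 to 1.19. The control and the si4 library stood apart most. Among 12904 members above 0 in all 4 libraries, the control was more than 1.5-fold above every other library for 144 genes and below for 20, and the si4 library was above for 27 and below for 99. The si5 library was above for 8 and below for 28, and the si1 library above for 5 and below for 31. Where a result rests on the control it is therefore also given with the control replaced by the geometric mean of si4 and si5, a reference chosen after seeing the data, in which the cells lacked most ZSCAN5A transcript and which includes the si4 library. Of 10 HEK-293 markers, all 10 were members. The blood markers CD14, CD3E, HBB and PTPRC stayed under 0.5 FPKM in every library, and of 6 fibroblast markers 1, COL1A1, was a member.

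More genes were lower than higher in the si1 library. Of the 12921 members, 518 (4.01%) differed from the control by more than 1.5-fold, 109 (0.844%) higher and 409 (3.17%) lower. Without a fold limit the directions were nearly balanced, with 6261 members higher and 6660 lower, a median log2 ratio of -0.01 and quartiles of -0.18 and 0.15. Past 2-fold there were 25 higher and 42 lower. At the edge of the 1.5-fold limit, MTL5 counted as lower with 1.17 FPKM against 1.75 and IGFBP3 did not with 0.678 against 1.02. With si4 and si5 as the reference, 73 genes were higher and 62 lower.

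**Figure D1:**
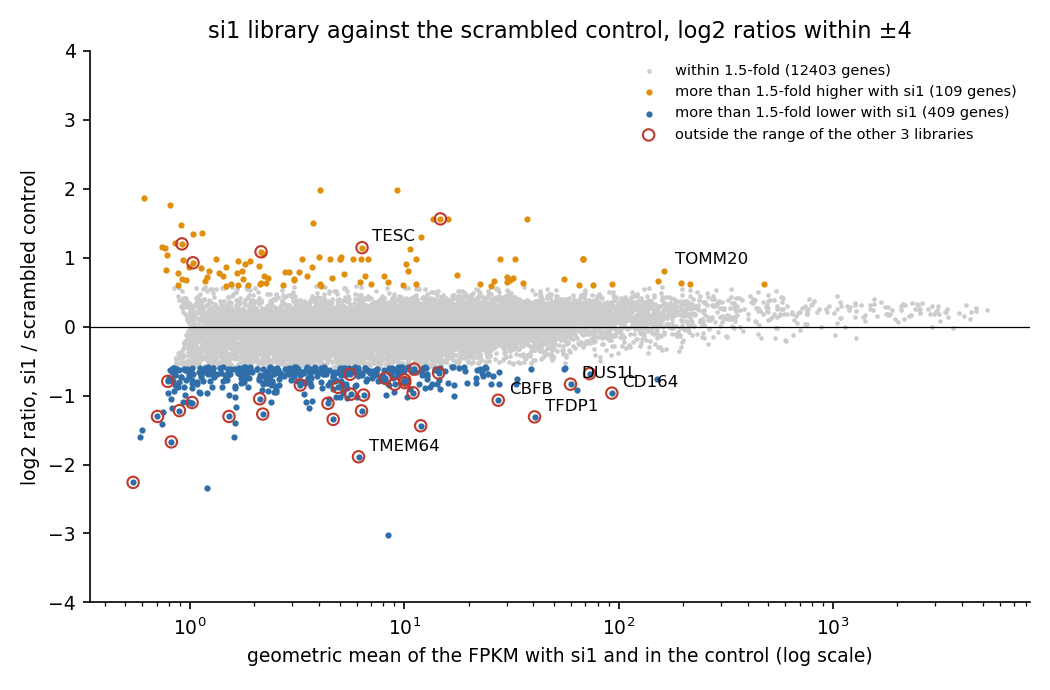
Log2 ratio of the si1 library to the scrambled control (vertical axis) against the geometric mean of their FPKM values (horizontal axis, log scale), 1 point per member, with log2 ratios beyond 4 in either direction left out. The 409 lower genes outnumber the 109 higher ones, and red rings mark the genes that also lay outside the range of all 3 other libraries.

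Genes with a short locus made up a large part of the higher group. Genes for snoRNAs, scaRNAs and microRNAs gave 20 of the 109 higher and 12 of the 409 lower members. With 64 such members, these were 31.25% higher and 18.75% lower, where 0.844% and 3.17% of all members were. Of 150 members whose locus spanned under 1 kb, 31 were higher and 22 lower, and of the other 12771 members 78 were higher and 387 lower. The FPKM values of some of these genes rested on few fragments. A ratio of small whole numbers was seen in 39 of the 150. In 21 of the 31 short higher genes the ratio was that of whole numbers from 1 to 5 at the relative depth of the libraries, within 0.05%, as it was in 0 of the 78 longer ones. Rows of the same or a related gene with identical values were counted apart. SNORA31, a guide RNA for pseudouridylation, had 12.8, 18.0, 18.3 and 4.64 FPKM for si4, si5, si1 and control, in the proportion of 4 fragments with si1 to 1 in the control. SNORA61 stood at 27.4 FPKM with si1 and 9.28 in the control, in the proportion of 3 to 1. No fold is given for these. A further 28 rows were listed at 0 with si1 and reached 1 FPKM in the control, and 24 were the reverse. Of these 52 rows, 44 were short RNA genes.

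A small set of genes stood below all 3 other libraries with si1. It held 31 of 12904 genes (0.240%) at more than 1.5-fold under the lowest other library, and 5 (0.0387%) were as far above the highest. Such sets were not particular to si1, since 99 genes lay as far below the rest in the si4 library and 28 in si5. Of the 31, 19 reached 5 FPKM with a locus of at least 1 kb, and these had si1 levels between 27.0% and 65.3% of the control. Against si4 and si5 their log2 ratios lay between -1.24 and -0.60. Because the set was chosen for low si1 values, these levels are a description.

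TFDP1 encodes DP1, the partner with which E2F transcription factors bind DNA. The FPKM stood at 61.6 with si4, 59.8 with si5, 25.8 in the si1 library and 63.8 in the control. The 3 other libraries lay close together and si1 was at 40.4% of the control. CD164, a sialomucin of endosomes and the cell surface, had an FPKM of 141 with si4, 145 with si5, 66.6 in the si1 library and 130 in the control. Here the other libraries were again close, and the log2 ratio was -0.96 against the control and -1.10 against si4 and si5. CBFB, the non-DNA-binding partner of the RUNX factors, had an FPKM of 38.4, 34.3, 19 and 39.7 for si4, si5, si1 and control. It was 2.1-fold lower than in the control.

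DUS1L, a dihydrouridine synthase that modifies tRNA, also belonged to the set. The FPKM stood at 78.6 with si4, 84.4 with si5, 44.7 in the si1 library and 79.7 in the control. The si1 value was at 56.1% of the control, and the other 3 libraries lay close together. DEGS1, which makes ceramide from dihydroceramide, had 92.2 and 89.5 FPKM with si4 and si5, 57.8 with si1 and 92.8 in the control. FBXW2, a substrate receptor of an SCF ubiquitin ligase, had 6.94, 7.23, 4.00 and 7.89 FPKM in the same order and held 5 seed matches. In both the si1 library was the lowest and the other 3 were close together.

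TMEM64 had the lowest ratio to the control among genes of at least 5 FPKM and 1 kb, and that ratio moved with the reference. It had an FPKM of 5.84 with si4, 6.50 with si5, 3.18 in the si1 library and 11.8 in the control. The control was also far above si4 and si5, so the log2 ratio of -1.89 against the control became -0.96 against si4 and si5. SUMF1, which activates sulfatases, had 8.80, 7.31, 4.14 and 9.65 FPKM in the same order of libraries. WASL, or N-WASP, which promotes actin branching, had 13.3, 12.5, 7.88 and 15.3. PPP1R12A, the targeting subunit of myosin phosphatase, had 17.3, 17.4, 11.4 and 18.3. In these 3 genes si1 was the lowest and the control the highest.

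The remaining genes of the 19 included KLHL20, an adaptor of cullin-3 ubiquitin ligases, at 7.59, 7.98, 4.39 and 7.08 FPKM for si4, si5, si1 and control. CDC42SE2, an effector of the small GTPase CDC42, had 11.3, 10.3, 6.27 and 10.5. FOXN3, a forkhead repressor, had 5.88, 6.04, 3.61 and 6.65. In KLHL20 the control was below si4 and si5, and in none of the 3 did si1 overlap the others. SH3BP5, RPRD1B, ITGA8, EPB41L4B, AGPAT5 and TMEM87A completed the set, with si1 between 2.99 and 8.99 FPKM. The 12 genes outside it were low or short. They included HIST1H2AL at 0.449 FPKM with si1 and 1.11 in the control, and the short gene SNORD17 at 2.92 and 7.42.

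Above the range, TESC was the 1 gene that reached 5 FPKM with a locus of at least 1 kb. It encodes tescalcin, a calcium-binding protein, and had an FPKM of 5.32 with si4, 5.31 with si5, 9.44 in the si1 library and 4.27 in the control. The si1 library was 2.21-fold above the control and well above both other libraries. The ETS factor ETV5 had 0.735, 0.798, 1.42 and 0.750 FPKM in the same order, and RNF5, a ubiquitin ligase of the endoplasmic reticulum, had 1.79, 1.75, 3.13 and 1.47. These were the next highest longer genes, at lower levels. HIST1H4E and SNORA72 were short genes with few fragments.

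**Figure D2:**
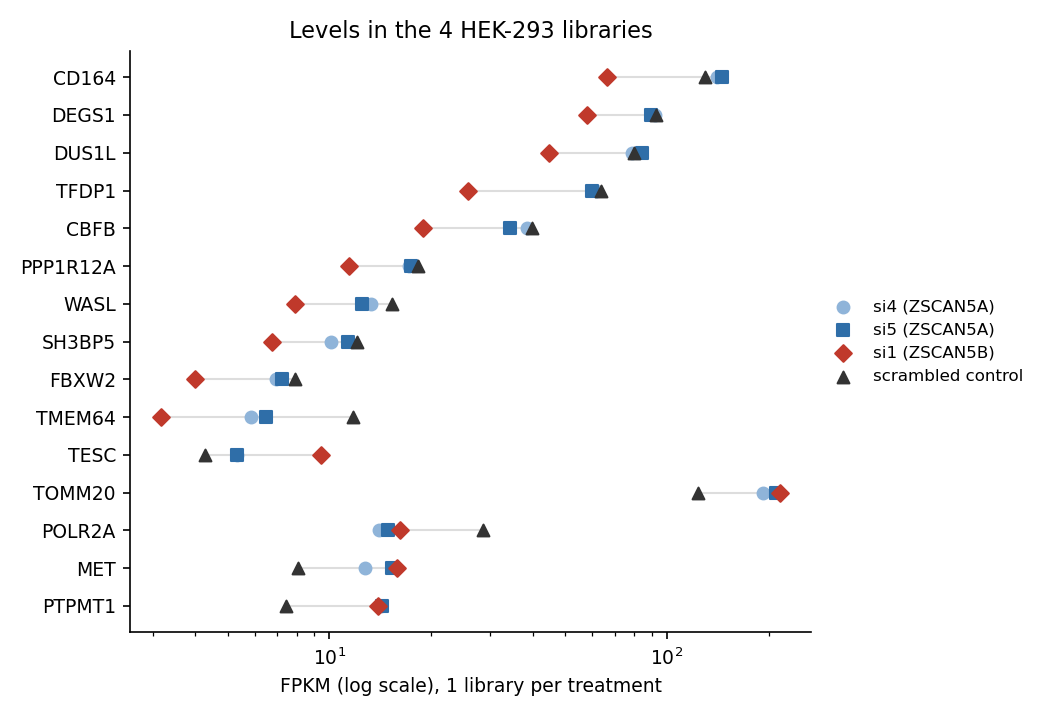
FPKM (log scale) of 15 named genes in each of the 4 libraries, 1 symbol per library. In the upper 10 genes and in TESC the si1 library lies outside the range of the others, and in TMEM64 the control stands apart as well. In TOMM20, POLR2A, MET and PTPMT1 the control stands alone and the 3 siRNA libraries lie together.

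The genes below the range held si1 seed matches more often than members at large. Of the 27 with an annotated 3′ UTR, 17 (63.0%) held at least 1 match, against 3029 of 12018 members (25.2%), and 11 (40.7%) held the 8-base match, against 7.11%. Among the 19 better expressed ones the counts were 16 (84.2%) and 10 (52.6%), where 25.2% and 6.97% of the 8995 members of the same level and span held them. The 3 without a match were SUMF1, EPB41L4B and RPRD1B. The 3′ UTRs of the 19 were also longer, with a median of 2361 bases against 1595, and longer 3′ UTRs hold more matches of any kind. The part of UTR length in these shares was not tested in this set.

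Across all members with a 3′ UTR, the share that was more than 1.5-fold lower grew with the number of matches. It was 2.33% of 8989 genes without a match, 4.03% with 1, 5.56% with 2 and 5.72% with 3 or more, and 6.32% of the 855 genes with the 8-base match. The share that was higher moved the opposite way, from 0.734% without a match to 0.297% with any. Of the 346 lower genes with a 3′ UTR, 137 (39.6%) held a match, and of the 75 higher genes 9 (12%) did. UTR length moved with the matches, from a median of 1243 bases without one to 6349 with 3 or more. Within the shortest tertile of 3′ UTRs 3.67% of genes with a match and 1.37% without were lower, within the middle tertile 3.18% and 2.66%, and within the longest tertile 5.20% and 3.57%.

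The same direction was seen when the control was left out. With si4 and si5 as the reference, 25 of 3028 genes with a match were more than 1.5-fold lower (0.826%), as were 21 of 8986 without (0.234%), and 0.297% and 0.501% were higher. The shift over most genes was small. For genes with the 8-base match the median log2 ratio to the control was -0.08 with si1, -0.03 with si4 and -0.01 with si5, and for genes without it 0.00, -0.01 and -0.03. These 3 sets of values share the control library. LPP, an adhesion gene with 6 matches, had 2.05 FPKM with si1, which was below the control at 3.28 but above si4 at 1.45 and si5 at 1.70.

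Of the 3029 genes with a match, 1304 paired with at least 8 consecutive guide bases including the seed, and 56 paired with at least 11. Of these 56, 4 (7.14%) were more than 1.5-fold lower, against 2.33% without a match and 3.17% of all members, and 1 was higher. The lower ones were DUS1L, FBXW2, WIPI1 and HOOK3. Their log2 ratios against si4 and si5 were -0.87, -0.83, -0.31 and -0.05, so that WIPI1 and HOOK3 did not pass the limit there. DUS1L paired with 13 such bases. MCTS1 had the longest run, 14 bases, with an FPKM of 7.0 with si1 and 6.10 in the control, and NUDT16, with 13, had 6.66 and 6.16. Neither was lower with si1 than in the control.

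**Figure D3:**
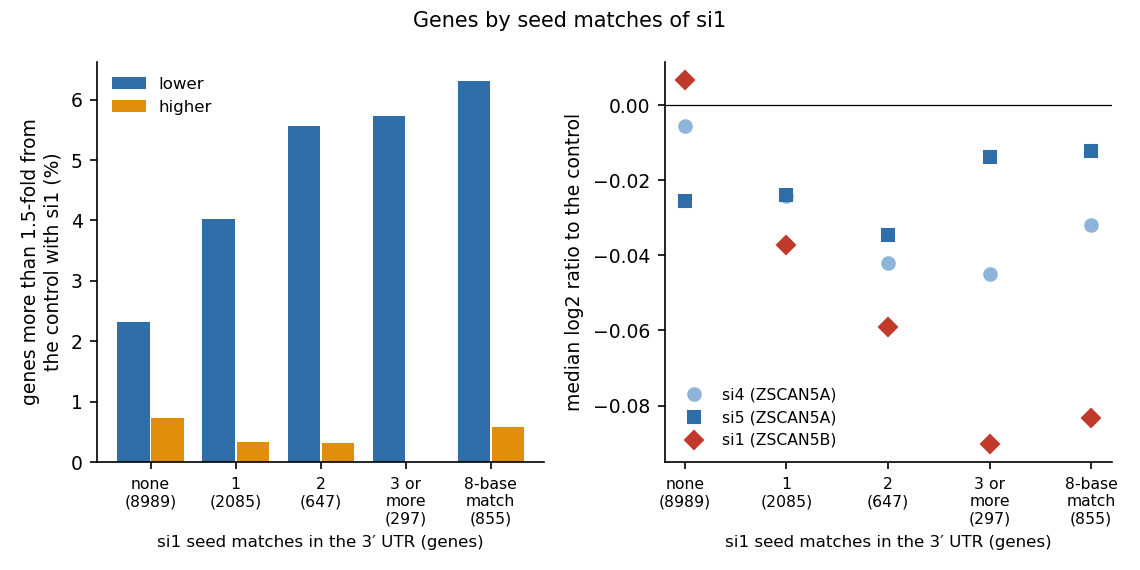
Left, percent of genes more than 1.5-fold lower (blue) or higher (orange) with si1 than in the control, by the number of si1 seed matches in the 3′ UTR and for the 8-base match, with the number of genes in parentheses. Right, median log2 ratio to the control in the same groups for each siRNA library. The lower share climbs from 2.33% without a match to 5.72% with 3 or more, and the si1 medians are the lowest wherever there is a match.

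The largest log2 ratios above the control, among genes of at least 5 FPKM and 1 kb, were mostly shared by the other siRNA libraries. MET, the receptor for hepatocyte growth factor, had 12.8 FPKM with si4, 15.4 with si5, 15.9 in the si1 library and 8.05 in the control, and PTPMT1, a mitochondrial phosphatase of cardiolipin synthesis, had 14.2, 14.3, 14 and 7.43. In both the control alone was low. The log2 ratio of PTPMT1 was 0.91 against the control and -0.03 against si4 and si5. CGA, the alpha subunit of the glycoprotein hormones, had 3.48, 4.85, 5.66 and 2.82 FPKM, with si1 the highest and si5 close behind. ZCCHC12 had 11.5, 9.07, 15.7 and 7.19, with a log2 ratio of 1.12 against the control and 0.62 against si4 and si5. MATK, a kinase related to CSK, had 4.97, 4.44, 6.78 and 4.00, and the readthrough gene EEF1E1-MUTED had 3.68, 2.93, 5.01 and 2.74. These 3 were highest with si1 in every comparison, and the other siRNA libraries stood between si1 and the control. DDX10, a helicase of ribosome assembly, was also among the 10 largest, at 12.8, 11.5, 13.8 and 7.89 FPKM, as were TESC and TOMM20.

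Of the 10 largest log2 ratios below the control, 5 (TMEM64, TFDP1, SUMF1, EPB41L4B and CBFB) lay below all libraries, and 5 did not pass that limit. S1PR1, a receptor for sphingosine 1-phosphate, had 3.54, 4.24, 2.38 and 5.42 FPKM for si4, si5, si1 and control. GPR63, an orphan receptor with 4 seed matches, had 2.77, 3.83, 2.38 and 5.07. In both si1 was the lowest and the control the highest. ARHGAP33, ENPP5 and LINC00294 had log2 ratios of -1.07, -1.05 and -1.04 against the control and -0.26, -0.51 and -0.10 against si4 and si5.

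Genes that make and use tRNA were slightly higher than in the control as groups, without members past the limit in that direction. Of 31 genes of RNA polymerase III and its factors, 25 were higher and 6 lower than the control, none by 1.5-fold, with a median log2 ratio of 0.14. The highest was SSB, the La protein that binds new polymerase III transcripts, with 184 FPKM with si4, 156 with si5, 203 in the si1 library and 152 in the control, and the lowest was GTF3C1, a subunit of TFIIIC, with 27.5, 26.3, 27.6 and 29.1. SSB was highest with si1, and the si1 value of GTF3C1 lay between those of the other libraries. With si4 and si5 as the reference the median of the polymerase III list was -0.02.

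The wobble uridine list, 17 enzymes that modify the first anticodon base, had 16 members higher and 1 lower, none past the limit, and a median of 0.19. DPH3 was the highest, at 16.7, 13.7, 12.8 and 9.51 FPKM, and GTPBP3 the lowest, at 17.5, 15.1, 15.5 and 16.7. The si1 value of DPH3 was below both other siRNA libraries. Among 61 other tRNA modification enzymes 48 were higher and 13 lower, with a median of 0.15. DUS1L was the 1 member past the limit (1.64%, where 3.17% of all members were as far lower). Of 24 genes of tRNA end processing 23 were higher (median 0.23), and of 38 aminoacyl-tRNA synthetases 29 were (median 0.14). The ligase subunit C22orf28 was the highest of the former, at 81.6, 72.0, 81.5 and 58.3 FPKM. With si4 and si5 as the reference these 4 medians were 0.00, 0.03, 0.05 and 0.00, against 0.02 over all genes.

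The genes the study listed near ZSCAN5B peaks in HEK-293 were chosen by the study with these libraries in hand and are no independent evidence of a direction. Of the 18, 10 were higher and 8 lower than the control and none passed 1.5-fold, where 4.01% of all members did, with a median of 0.12. That median was -0.02 with si4 and si5 as the reference and 0.01 after the correction for transcript length. FAM195A was the highest, at 24.8, 23.0, 24.8 and 17.7 FPKM for si4, si5, si1 and control. MDM4, an inhibitor of p53, was the lowest, at 3.83, 3.86, 4.18 and 6.04. In both the 3 siRNA libraries lay together and the control stood alone. HELZ, a helicase, had 4.65, 4.61, 4.87 and 6.94 FPKM in the same pattern, and the chromatin remodelling subunit BPTF had 8.97, 9.18, 9.03 and 11.8. CXADR, a virus and adhesion receptor with 3 seed matches, was lowest with si1, at 17.3, 18.6, 13.2 and 18.7. TIA1, which binds RNA in stress granules, had 21.8, 21.4, 19.8 and 23.9. In both si1 was the lowest and the control the highest. The other 12 had log2 ratios between -0.30 and 0.46.

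Nearly all mitochondrial, ribosomal and proteasome genes were higher than in the control. All 46 proteasome subunits were higher (median log2 ratio 0.28), as were 78 of 79 nuclear genes of oxidative phosphorylation (0.26), 72 of 77 mitochondrial ribosomal proteins (0.26), 29 of 29 genes of mitochondrial protein import (0.26) and 81 of 85 cytosolic ribosomal proteins (0.24). In these 5 lists TOMM20 alone passed 1.5-fold, where 4.01% of all members did. TOMM20, a receptor of the outer membrane for proteins to be imported, had 193 FPKM with si4, 211 with si5, 217 in the si1 library and 123 in the control. The proteasome subunit PSMA4 had 312, 289, 342 and 237, and the cytochrome oxidase subunit COX6C had 121, 123, 138 and 97.6. In each the control was the lowest and si1 the highest. Against si4 and si5 the 5 medians were 0.08, 0.03, 0.04, 0.03 and -0.08. With the median of genes of like length taken off, the medians against the control were 0.19, 0.13, 0.14, 0.19 and 0.12. Of 50 snoRNP and ribosome assembly genes 47 were higher, with a median of 0.23 (0.05 against si4 and si5). DDX10 was past the limit (2%, where 0.844% of all members were as far higher). RPL13A went the other way, at 849, 846, 622 and 680 FPKM, with si1 under all other libraries.

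Genes of the cell cycle differed little as groups. Of 51 centromere, kinetochore and checkpoint genes 28 were higher and 23 lower than the control, none past the limit, with a median of 0.02. CENPW, which helps build the kinetochore, was the highest at 115, 101, 121 and 91.6 FPKM for si4, si5, si1 and control, and INCENP, of the chromosomal passenger complex, the lowest at 11.1, 12.6, 10.7 and 14.1. Of 20 E2F, DP, pocket and MuvB genes 13 were lower, 2 of them (10%, against 3.17% of all members) past the limit, and the median of -0.14 was 0.01 with si4 and si5 as the reference. These were TFDP1 and E2F7, a repressor of E2F targets that had 10.9, 11, 10.0 and 16.1 FPKM. E2F7 was thus low in all 3 siRNA libraries, unlike TFDP1.

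Of 52 S phase genes known as E2F targets, 34 were lower and 18 higher, and RRM2 alone passed the limit (1.92%, against 3.17% of all members). RRM2, a subunit of ribonucleotide reductase, had 54.1 FPKM with si4, 79.7 with si5, 46.5 in the si1 library and 87.9 in the control. The si1 library was the lowest and si4 was near it. The median log2 ratio of this list was -0.05 with si1 and 0.05 with both si4 and si5 against the shared control, and -0.10 against si4 and si5. Among 30 cyclins, kinases and inhibitors 20 were lower (median -0.09, and -0.06 against si4 and si5). Of these, CDK6, with 3 seed matches, and CDKN1C passed the limit (6.67% of the list, against 3.17% of all members). CDK6 had 10.6, 6.26, 7.76 and 14.5 FPKM, so that si5 was below si1.

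Most developmental and matrix genes were lower than the control. Of 36 HOX genes 32 were lower (median -0.30), of 73 matrix genes 62 (-0.22), of 30 Hedgehog and Notch genes 22 (-0.21), of 63 axon guidance genes 44 (-0.20), of 57 kidney development genes 39 (-0.17) and of 45 adhesion genes 34 (-0.15). The lists held 3 (8.33%), 5 (6.85%), 6 (20%), 5 (7.94%), 4 (7.02%) and 4 (8.89%) genes past the limit, all lower, where 3.17% of all members were. HOXC8, at 6.23, 7.19, 6.28 and 11 FPKM, and NOTCH2, at 7.26, 6.38, 7.96 and 12.5, were typical, with the control alone high. PAX2, a kidney regulator past the limit, had 0.584, 0.615, 0.608 and 1.16. It reached 1 FPKM only in the control and was a member through that value alone, so its high control is no further example. The laminin chain LAMA5 had 3.53, 4.55, 3.95 and 7.33 FPKM and the perlecan gene HSPG2 0.955, 1.12, 1.14 and 2.31. Against si4 and si5 the 6 medians were -0.06, 0.09, 0.04, 0.02, 0.03 and 0.05. Against that reference 0, 1, 0, 0, 1 and 2 genes were lower past the limit, where 62 of 12904 members were. There 1 matrix and 1 kidney gene were as far higher. With the median of genes of like length taken off, 5, 3, 0, 3, 3 and 2 were lower past it. So were 318 of 12444 members, and 2 axon guidance genes were as far higher. FOXD1, a renal stroma factor with an 8-base match, was different, at 16.4, 13.7, 9.76 and 17.9, and so was the integrin ITGA4, with 3 matches, at 5.04, 4.85, 3.28 and 5.89. In these si1 was lower than the other 3 libraries, by more than 1.5-fold from the control and by less from si5, the lowest of the others. MATN2, a matrix gene without a match, had 2.34, 2.57, 1.47 and 3.04 FPKM. The adhesion gene ITGA8, with 1 match, had 7.14, 8.19, 4.58 and 9.11. For MATN2 and ITGA8 si1 was more than 1.5-fold under every other library.

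Chromatin genes had the largest number past the limit among the lists of protein-coding genes. Of 92 genes for histone modification and remodelling, 79 were lower than the control and 17 (18.5%) passed 1.5-fold, all lower, with a median of -0.25, where 3.17% of all members were as far lower. The remodelling subunit ARID1A had 7.15 FPKM with si4, 7.82 with si5, 6.42 in the si1 library and 12.4 in the control. The methyltransferase MLL2 had 2.52, 2.96, 3.05 and 5.65. In both the control was high and the siRNA libraries lay together. With si4 and si5 as the reference the median was -0.01 and 0 of 92 passed the limit. These genes are long, with a median transcript of 7812 bases against 3586 over members, and 10 of the 17 stayed past the limit when the median of genes of like length was taken off. POLR2A, the largest subunit of RNA polymerase II, behaved similarly at 14, 14.9, 16.2 and 28.5 FPKM.

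Ratios to the control moved with transcript length, and this touches every list above. Over quintiles of members from the shortest to the longest transcripts the median log2 ratio was 0.12, 0.03, -0.01, -0.07 and -0.11, and the share more than 1.5-fold lower was 1.65%, 1.61%, 2.53%, 3.13% and 6.31%. The share that was higher went from 2.33% to 0.201%. Against si4 and si5 the medians of the outer quintiles were 0.02 and 0.00. Expression level moved with the ratio as well, from a median of -0.11 for genes between 1 and 3 FPKM to 0.20 for genes over 100 FPKM. The parts of length, level and treatment in the differences from the control cannot be told apart with 1 control library.

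**Figure D4:**
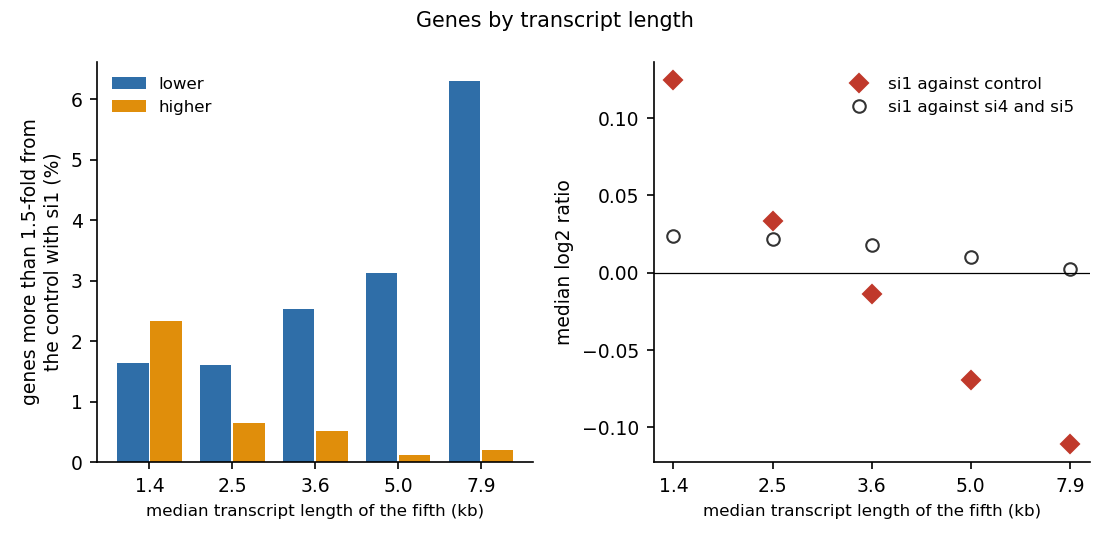
Left, percent of members more than 1.5-fold lower or higher with si1 than in the control in quintiles of transcript length, placed by the median length of each. Right, median log2 ratio of si1 to the control (filled) and to si4 and si5 (open). The filled points fall from 0.12 to -0.11 with length and the open points stay between 0.00 and 0.02.

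**Figure D5:**
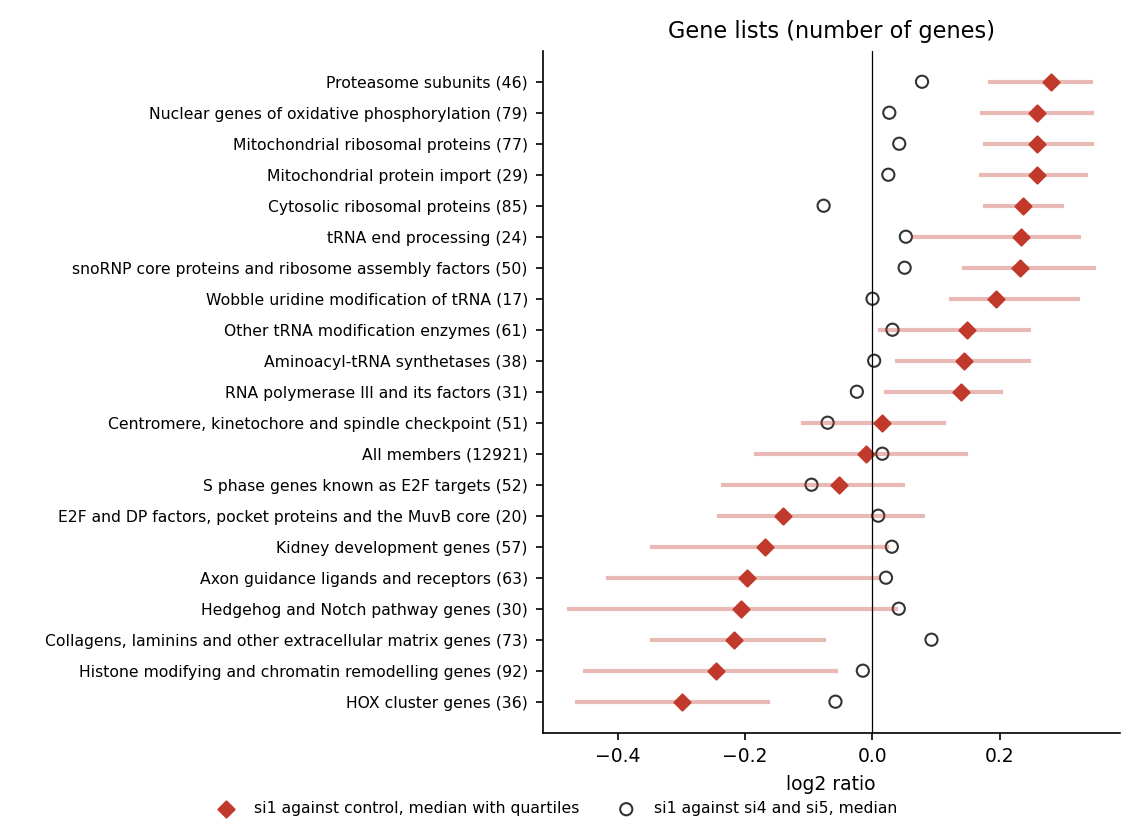
Median log2 ratio of the si1 library to the control with quartiles (red) and to the geometric mean of si4 and si5 (open circles) for 20 gene lists and all members, with the number of genes in parentheses. Medians against the control run from 0.28 for proteasome subunits to -0.30 for HOX genes, and those against si4 and si5 lie between -0.10 and 0.09.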

How the data were processed

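Poly(A) RNA of 4 HEK-293 libraries, 1 per treatment, was measured. The authors deposited 1 table of FPKM values per gene and library, made with TopHat2 2.1.0 and Cufflinks 2.2.1 after Trimmomatic 0.30 and CASAVA 1.8.2 (submitters' processing notes), on hg19. It held 0 other columns of per-sample values. Labels and methods name different stranded mRNA kits and the counting strand is not given in the sources used here, so reads of overlapping or antisense genes cannot be told apart. Values were used as deposited, without a pseudocount, and a value of 0 or a Cufflinks value near 0 (SNORA7A, MIR671) was given no fold. Genes were called past 1.5-fold. Fragments were recovered from low values in whole-number proportions (no number above 40, tolerance 0.05%), found for 70.1% of 1745 genes under 0.1 FPKM, 50.4% of 1262 from 0.1 to 0.3 and 15.5% of 1592 from 0.3 to 1. Intervals are exact (Clopper-Pearson, 95%) and cover counting error only.

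Transcript length and 3′ UTRs came from the GENCODE annotation on GRCh37 for 96.3% of members, 1181 through an older symbol. Seed matches were searched as ATCATTT in the 3′ UTR of 1 transcript per gene, on the transcript strand. siRNA sequences came from the study's supplement. The members and the 40 gene lists were chosen with earlier results of these data known.

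Named genes were the ZSCAN5 genes and their neighbours, the 10 largest differences in each direction (at least 5 FPKM and 1 kb), up to 5 list members past the limit in each direction or else the extremes, the study's peak genes, the genes outside the range of the other libraries, and up to 5 lower genes with at least 2 seed matches. Chosen after their values were seen were MCTS1, NUDT16, WIPI1, HOOK3, MTL5, IGFBP3, ADPRHL1 and ZNF385C. Alternatives covered the expression limit, pseudocount, zeros, scaling, fold limit, rows that share a symbol, locus span, transcript length, match type, UTR length and the reference. The fold rule and the recovery of fragments were run on simulated data, with changes larger than 1.5-fold in genes of at least 5 FPKM. Seed matches, the range of the other libraries, the length correction and the gene lists were not simulated. Python 3.11.15, NumPy 2.4.6, pandas 2.3.3, SciPy 1.17.1 and matplotlib 3.10.9 were used. ZSCAN5C, ZSCAN5D, ChIP-seq and qRT-PCR were not analysed here. Some genes that the naming rule covers are not reported here.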

Additional observations from a re-analysis of the deposited data

How the results depend on the processing

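With 1 library per treatment there is no replicate to leave out, and every ratio to the control carries the counting error and any peculiarity of that 1 library. No paired analysis was possible because each treatment has 1 library. The number of genes past 1.5-fold was 518 (109 higher and 409 lower). It was 252 (56 and 196) with an expression limit of 5 FPKM, 210 (60 and 150) with a pseudocount of 1, 2364 (888 and 1476) with no expression limit, and 67 (25 and 42) with a fold limit of 2. With si4 and si5 as the reference, added after seeing the data, it was 135 (73 and 62). An expression limit of 0.5 FPKM, a pseudocount of 0.1, zeros counted, both scalings, summed rows, loci of at least 1 kb and the length correction kept each of the 3 counts within 1.5 times. The log2 size factors of the si1 library were -0.0068 with median-ratio and -0.013 with upper-quartile scaling. ZSCAN5B with si1 stayed between 102% and 106% of the control under all 3 alternatives run.

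The share of genes with a seed match that were lower was 4.52%. It was 6.32% for the 8-base match, 3.67% and 3.18% in the shortest and middle tertiles of 3′ UTR length, 5.20% in the longest, and 0.826% with si4 and si5 as the reference. At a fold limit of 2, 1 gene was above and 4 were below all other libraries, and median-ratio scaling left these counts at 5 and 31.

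Of 37 list medians with at least 5 members, 15 changed sign with si4 and si5 as the reference. They became -0.024 for RNA polymerase III, -0.076 for cytosolic ribosomal proteins, -0.070 for kinetochore genes, 0.0093 for E2F and DP factors, 0.093 for matrix, 0.049 for adhesion, 0.021 for axon guidance, 0.031 for kidney, 0.042 for Hedgehog and Notch, 0.031 for Wnt, -0.021 for Mediator and polymerase II, 0.010 for SCAN domain, 0.052 for histone and 0.17 for short RNA genes, and -0.018 for the study's peak genes. The length correction gave -0.0061 for kinetochore genes and -0.025 for reference genes. Upper-quartile scaling gave 0.0047 for cholesterol genes and 0.0082 for glycolysis, and median-ratio scaling gave 0.0023 for glycolysis. The other list medians kept their sign in every alternative run.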

Other observations

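Genes of the small RNA pathway that an siRNA uses were lower than in the control. Of 17 genes of Argonaute and small RNA silencing 13 were lower, 3 of them past 1.5-fold (17.6%, where 3.17% of all members were as far lower), with a median log2 ratio of -0.30 that was -0.08 against si4 and si5. EIF2C4, which encodes Argonaute 4, had 7.84 FPKM with si4, 7.86 with si5, 6.21 in the si1 library and 10.2 in the control. The GW182 protein TNRC6A, with an 8-base match, had 11.2, 12.5, 9.51 and 15.4, and TNRC6C had 2.04, 2.22, 1.78 and 3.44. In each si1 was the lowest and the control the highest. Interferon and RNA sensing genes, a group that foreign double-stranded RNA can induce, showed no common direction, with 16 of 30 higher, 14 lower, none past the limit and a median of 0.01.

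Of 26 p53 pathway genes 21 were lower and none passed the limit (median -0.14, and -0.03 against si4 and si5). Of 34 genes of the integrated stress and unfolded protein responses 27 were lower (median -0.15, and -0.09 against si4 and si5). SLC7A11 and VLDLR were lower past the limit (5.88%, against 3.17% of all members). SLC7A11, the cystine transporter, had 3.53, 7.66, 3.99 and 6.28 FPKM for si4, si5, si1 and control, so that si1 was near si4 and si5 was near the control. Of 26 cholesterol genes 14 were lower and 12 higher, and 2 (7.69%, against 3.17% of all members) were lower past the limit. One of them was INSIG1, which is controlled by sterols. INSIG1 had 120, 154, 116 and 196 FPKM. The cystine transporter gene and INSIG1 were lower with si4 and si1 than with si5. Of 429 ZNF-numbered zinc finger genes 181 were higher and 248 lower (median -0.03, and -0.02 against si4 and si5). Past the limit were 8, all lower (1.86%, under the 3.17% of all members). Of 38 SCAN domain genes 15 were higher, 23 lower and none past it (median -0.04). Of 34 histone genes without a poly(A) tail, 2 (5.88%) were higher and 7 (20.6%) lower past the limit, where 0.844% and 3.17% of all members were, at low FPKM. With si4 and si5 as the reference 2 were higher and 1 lower past it, and the median of -0.23 became 0.05. With the median of genes of like length taken off, 1 of 33 was higher and 11 were lower past it. Of 48 Wnt pathway genes 32 were lower, with TCF7L2 past the limit (2.08%, against 3.17% of all members, median -0.12). Of 45 Mediator and RNA polymerase II genes 26 were higher (median 0.10, and -0.02 against si4 and si5). POLR2A and MED12L were lower past the limit (4.44%, against 3.17% of all members). Of 22 glycolysis genes 10 were higher and none past it. The 14 genes often used as expression references had a median of 0.03 and none passed the limit. Of 13 trophoblast markers CGA and GATA3 were members, and ELF5, INSL4, PSG1 and PSG3 were listed at 0 in every library.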
